A study of Homo sapiens with 12 samples.

Results

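The genes described here encode the matrix metalloproteinases (MMP), their tissue inhibitors (TIMP), and the ADAM and ADAMTS proteases. Members were the rows of the deposited count table whose symbol is MMP, ADAM or ADAMTS followed by a number, or TIMP1 to TIMP4. This rule used no measured value and gave 67 of the 57500 genes, namely 22 MMP, 4 TIMP, 22 ADAM and 19 ADAMTS genes. RNA of 3 established human cancer lines was sequenced as 4 groups of 3 libraries, which the titles call biological replicates. SW480 comes from a primary colorectal cancer and SW620 from a metastasis of the same patient, and both grew in DMEM with fetal bovine serum. PEO4 is an ovarian cancer line that grew in RPMI 1640 with the same kind of serum, either in control medium or with recombinant human TGF-β at 10 ng/mL for 6 days. The design sets SW620 against SW480, and PEO4 with TGF-β against PEO4 control. Each group is 1 line in culture, so a difference between SW620 and SW480 is a difference between those lines, and p-values measure the spread between these libraries. In bulk RNA, fewer cells with a transcript and less transcript per cell cannot be told apart.

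MMPs are secreted or membrane-bound zinc enzymes that cut collagens, laminins, proteoglycans and growth factor precursors, and TIMPs bind their active sites. MMP14, a membrane-type MMP, activates pro-MMP2 at the cell surface in a complex that contains TIMP2, so TIMP2 is an inhibitor and also part of that activation step. ADAMs are membrane proteins, of which ADAM10 and ADAM17 release the outer parts of Notch, cadherins, TNF and EGF-family ligands. Several others, such as ADAM11, ADAM22 and ADAM23, lack a working catalytic site and act as adhesion or receptor proteins. ADAMTS proteins are secreted, carry thrombospondin repeats and cut versican and aggrecan (ADAMTS1, ADAMTS4, ADAMTS5, ADAMTS8, ADAMTS15), procollagen (ADAMTS2, ADAMTS3, ADAMTS14) or von Willebrand factor (ADAMTS13). TGF-β is a cytokine known for its control of matrix genes, their proteases and their inhibitors.

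The promoters of 4 members are printed here because MMP14, ADAM19 and ADAMTS7 were past the threshold in both comparisons, and MMP7 carried the AP-1 motif. TIMP2 was past the threshold in both as well, but no promoter sequence was at hand for it. Each sequence is the 250 bases before the RefSeq start of the gene (GRCh38.p14), read 5′ to 3′ on the gene's strand. They lie at chr14:22836335-22836584 on the + strand (MMP14), chr5:157575776-157576025 on the - strand (ADAM19), chr15:78811465-78811714 on the - strand (ADAMTS7) and chr11:102530748-102530997 on the - strand (MMP7). Capitals mark 4 motifs, which are the GC box (GGGCGG or CCGCCC), the AP-1 motif (TGAGTCA or TGACTCA), the TATA motif (TATAAA or TTTATA) and the SMAD palindrome GTCTAGAC.
MMP14: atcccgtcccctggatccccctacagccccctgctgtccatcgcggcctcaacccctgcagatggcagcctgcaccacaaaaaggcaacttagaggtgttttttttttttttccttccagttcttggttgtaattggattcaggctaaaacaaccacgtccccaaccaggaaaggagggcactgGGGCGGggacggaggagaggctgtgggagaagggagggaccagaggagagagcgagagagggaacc
ADAM19: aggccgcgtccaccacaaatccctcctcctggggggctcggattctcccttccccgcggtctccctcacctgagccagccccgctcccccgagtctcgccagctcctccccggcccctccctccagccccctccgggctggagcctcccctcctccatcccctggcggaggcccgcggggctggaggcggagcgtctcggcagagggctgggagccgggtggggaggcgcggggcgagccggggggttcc
ADAMTS7: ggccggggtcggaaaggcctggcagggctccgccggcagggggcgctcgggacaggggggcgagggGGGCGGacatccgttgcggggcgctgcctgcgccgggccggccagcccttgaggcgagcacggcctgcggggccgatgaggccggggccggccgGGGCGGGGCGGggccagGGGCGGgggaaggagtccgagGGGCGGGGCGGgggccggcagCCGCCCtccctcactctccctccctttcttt
MMP7: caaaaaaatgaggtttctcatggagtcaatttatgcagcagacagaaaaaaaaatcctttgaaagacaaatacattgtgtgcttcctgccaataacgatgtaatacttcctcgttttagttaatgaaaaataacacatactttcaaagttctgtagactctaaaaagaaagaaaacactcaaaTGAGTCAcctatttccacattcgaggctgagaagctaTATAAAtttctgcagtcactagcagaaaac
The MMP14 window held 1 GC box, the ADAMTS7 window had many that partly overlap, and the ADAM19 window held none of the 4 motifs. Windows were at hand for 38 members, with 2 for ADAMTS10, and 25 of these 39 windows held a GC box (64.1%) against 42.6% of 35116 windows of all genes. The TATA motif was in 7 member windows (17.9%) and in 10.7% of all windows. The AP-1 motif was in the MMP7 window alone (2.56%, against 4.20% of all), and the SMAD palindrome was in no member window (0.182% of all). These are matches of letters and say nothing about binding. The members were also split by base composition at 50% GC, a value chosen after the levels were seen. Under 50% GC were 23.1% of member windows and 31.9% of all windows. The 9 members under 50% GC (ADAM20, ADAM21, ADAM29, MMP7, MMP8, MMP10, MMP20, MMP26 and MMP27) had no group mean above 2.42 TPM, the level scaled for transcript length and library size. Of the 29 other members, 25 reached 1 TPM and 12 reached 10 TPM in some group. Levels of all genes on either side of the split were not compared, so no trait of these families follows.

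Library totals ranged from 14531420 to 22028956 counts. The ovarian sum was highest in PEO4 and the colorectal sum in the SW lines, but not every single marker went with the labels. Summed over 6 ovarian markers, PEO4 control had 4948 to 8075 CPM (the count scaled to library size) and PEO4 with TGF-β 2530 to 4162 CPM, while 4 of 7 colorectal markers (CDX1, CDX2, CDH17 and KRT20) had at most 3 counts in every PEO4 library. The colorectal sum was 96.7 to 133 CPM in SW480 and 357 to 393 CPM in SW620. The SW lines also held ovarian markers, with sums of 115 to 151 CPM in SW480 and 155 to 189 CPM in SW620. CDX1 and KRT20 were low there too, with means of 0.199 and 0.230 CPM in SW480 and 0.140 and 0.537 CPM in SW620. CDH17 had a mean of 0.605 CPM in SW480 and 3.68 CPM in SW620. Sums of fibroblast and endothelial markers also differed between the SW lines, while the sums of leukocyte markers overlapped. The 3 fibroblast markers summed to 0.271 to 0.476 CPM in SW480 and 6.00 to 10.9 CPM in SW620, the 2 endothelial markers to 0.108 to 0.340 and 1.98 to 6.81 CPM, and the 3 leukocyte markers to 0.157 to 1.35 and 0.849 to 5.77 CPM. Among these, DCN and PDGFRA (fibroblast), CDH5 (endothelial) and PTPRC (leukocyte) had at most 3 counts in every SW480 library. The highest fibroblast marker in SW620 was LUM, with a mean of 7.76 CPM. LUM was past the threshold as higher in SW620 (log2 fold change 4.71, adjusted p = 9.48e-05, edgeR). So was the endothelial marker PECAM1 (4.07, adjusted p = 0.00128, edgeR). The leukocyte marker CD68 had a log2 fold change of -0.44 in SW620 over SW480 and did not pass (adjusted p = 0.700, edgeR). The other markers of these 3 lists were below the filter. The part of these markers in the results was not tested. SW620 replicate 3 stood apart in holding counts of genes that PEO4 expresses and other SW libraries lack. By a rule added after seeing the data, 18 such genes had 184 counts there, which is 1.28% of their PEO4 level, against 0.169% to 0.416% in the other SW libraries. Called members for which this share equals over 10% of the counts in that library are given with and without it.

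Of the 67 members, 5 had no count in any of the 12 libraries (ADAM6, ADAM7, ADAM30, MMP26 and MMP27). A further 8 had at most 3 counts in every library, namely ADAM2, ADAM5, ADAM18, ADAM29, ADAMTS5, MMP8, MMP13 and MMP20, so 13 members were at or under the floor of 3 counts throughout. By contrast, 33 members reached 100 counts in some library. Per transcript length, a mean of at least 1 TPM was reached by 29 members in PEO4 control, 31 in treated PEO4, 30 in SW480 and 27 in SW620. The inhibitors TIMP1 and TIMP2 were near the top in every group, whereas TIMP4 had at most 1.90 TPM in any group and TIMP3 had 4.63 TPM in SW620. In PEO4 control the 3 highest were TIMP3 at 148 ± 53.4 TPM, TIMP2 at 147 ± 20.1 TPM and the versican protease ADAMTS1 at 97.1 ± 46.7 TPM (SD, n = 3, as for all TPM here), whose spreads overlapped. In PEO4 with TGF-β they were TIMP2 at 202 ± 9.0 TPM, TIMP1 at 69.7 ± 10.8 TPM and the sheddase ADAM9 at 65.2 TPM, of which TIMP2 lay above the others beyond the spread. In SW480 they were TIMP2 at 255 ± 48.1 TPM, TIMP1 at 120 ± 31.4 TPM and the meltrin ADAM19 at 63.4 TPM. In SW620 they were TIMP1 at 182 ± 61.5 TPM, TIMP2 at 70.1 ± 15.9 TPM and ADAM15 at 35.7 TPM.

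The membrane sheddases were found in all groups. ADAM10 had 38.7, 35.1, 21.1 and 25.8 TPM in PEO4 control, treated PEO4, SW480 and SW620, and ADAM17 had 32.8, 37.1, 15.2 and 8.94 TPM in the same order. Other members differed widely between PEO4 and the SW lines. ADAMTS1 had 44.9 TPM in treated PEO4 but 0.27 and 0.51 TPM in SW480 and SW620. The catalytically inactive ADAM22 had 17.8 and 15.7 TPM in SW480 and SW620 but 0.61 TPM in PEO4 control and 0.35 TPM in treated PEO4. No test was made between PEO4 and the SW lines, which grew in different media.

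**Figure D1:**
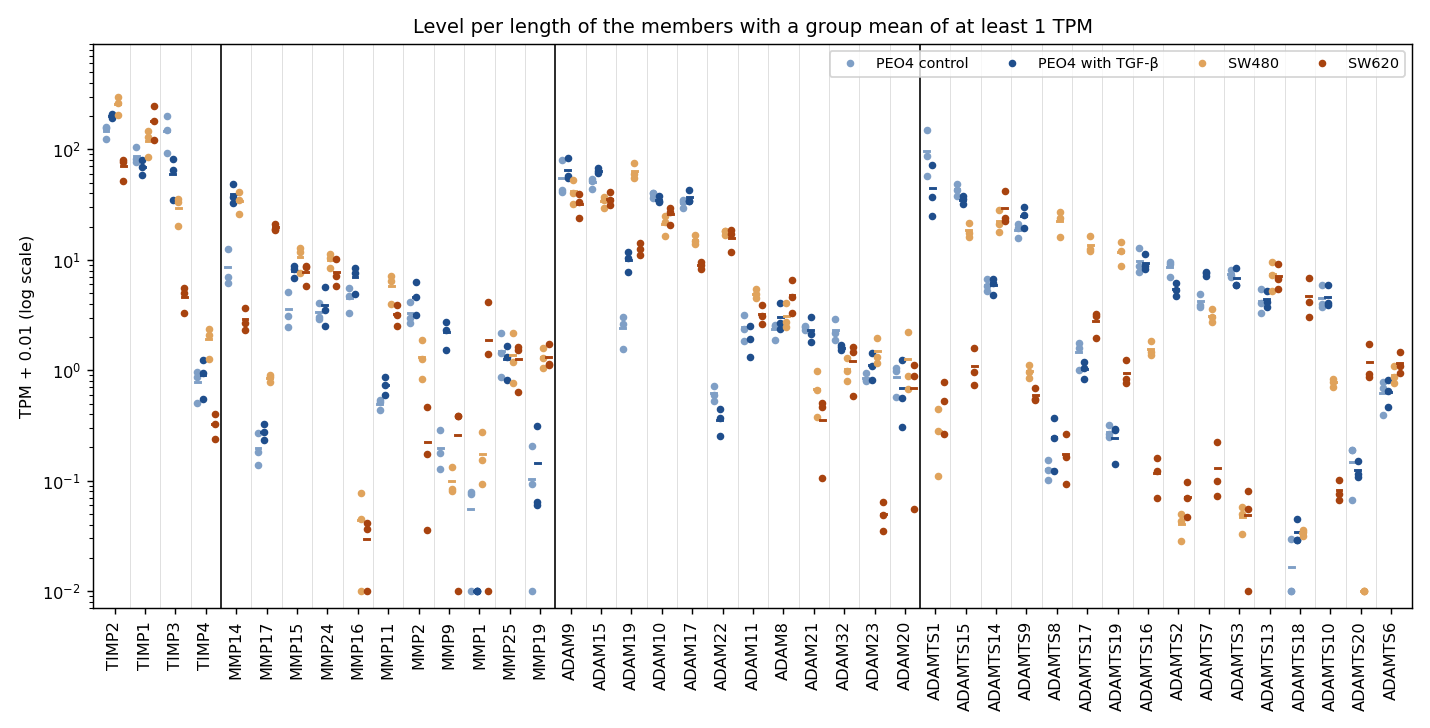
Level of each member with a mean of at least 1 TPM in some group, on a log axis of TPM plus 0.01. Each point is 1 library, and short lines are group means (n = 3 libraries). TIMP1 and TIMP2 are near the top in all 4 groups, while ADAMTS1, ADAM22 and ADAMTS8 are high in some groups and low in others.

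In SW620 against SW480, most of the members past the threshold were lower in SW620, the line from the metastasis. They included 3 of the 4 inhibitors, the membrane-type protease MMP14, the meltrin ADAM19 and 7 ADAMTS genes, whereas the GPI-anchored protease MMP17 and 3 ADAMTS genes were higher. Of the 67 members, 39 passed the filter on low counts and 28 did not. Of the 39, 16 fell and 4 rose at an adjusted p under 0.05 (edgeR quasi-likelihood test, Benjamini-Hochberg adjustment over 20941 genes), and 19 of these 20 by at least 2-fold. The share past the threshold was 51.3%, against 30.5% of all genes tested. By direction, 41.0% of the tested members were lower, against 17.0% of all genes, and 10.3% were higher, against 13.5% of all. Members that passed the filter through the higher group alone had to differ, so these shares describe the table and support nothing further. Among the 26 members with at least 10 counts in every SW library, 9 were past the threshold (34.6%, against 33.3% of all genes under that filter), which is close to the background. Of those 9, 8 were lower (30.8%, against 16.6% of all) and 1 was higher (3.85%, against 16.7%). The median log2 fold change over the 39 was -0.64, against 0.03 over all genes; it was -0.12 with no count filter and -0.36 with at least 10 counts in every library. The libraries of the 2 lines did not overlap for 23 of the 39 members, and for 44.2% of all genes tested.

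**Figure D2:**
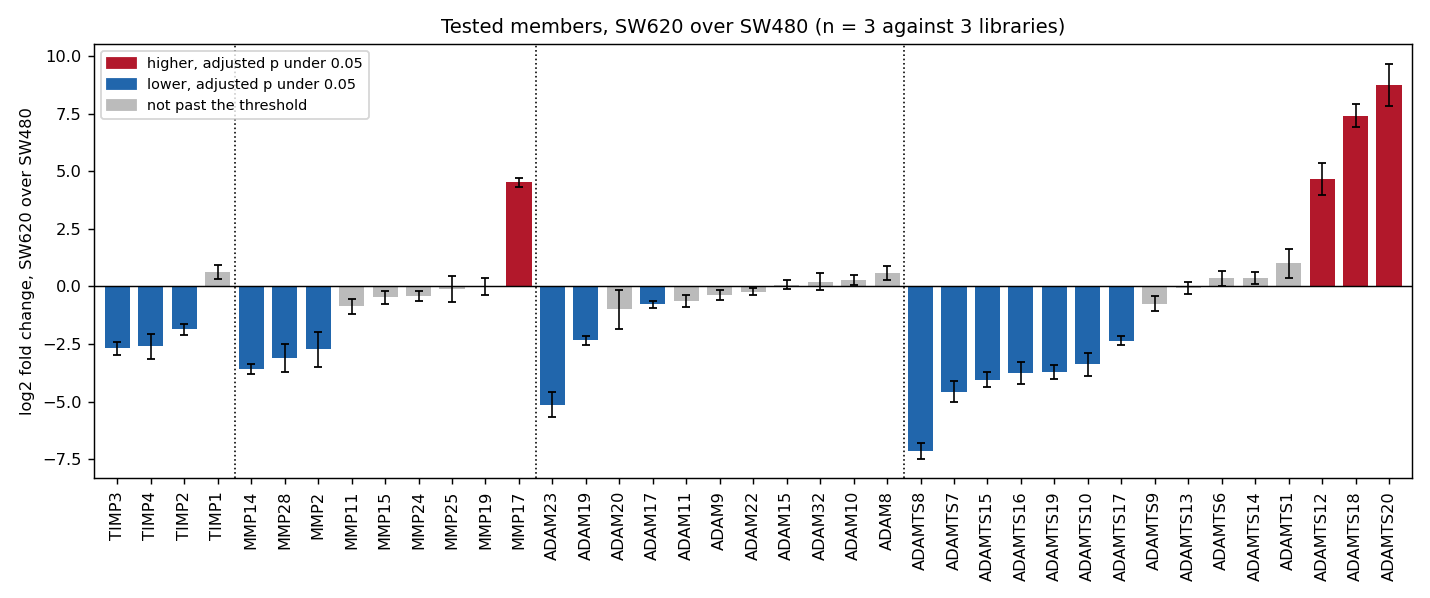
log2 fold change of SW620 over SW480 for the 39 tested members (edgeR, bars with standard errors, 3 against 3 libraries), grouped by family and ordered by size. Coloured bars are the 16 lower and 4 higher members past an adjusted p of 0.05; the TIMP bars other than TIMP1 point down.

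Among the inhibitors, TIMP2 had 575, 430 and 582 CPM in the SW480 libraries and 146, 102 and 187 CPM in the SW620 libraries (replicates 1 to 3 here and below). The groups did not overlap, and TIMP2 fell with a log2 fold change of -1.87 ± 0.26 (SE, adjusted p = 0.000627, edgeR). TIMP2 lies at chromosome 17, 78852977 to 78925387 (GRCh38), and 10.0% of its exon bases overlap CEP295NL or AC022966.1; CEP295NL had at most 238 counts in any library. TIMP3, the inhibitor that binds the matrix, was at 50.2 ± 13.5 CPM (SD, n = 3) in SW480 but at 7.77 ± 2.20 CPM in SW620, so its log2 fold change was -2.69 ± 0.28 (adjusted p = 0.000135, edgeR). In SW620 replicate 3, 28.3% of its 183 counts equal 1.28% of the PEO4 level, and without that library the value was -2.86. TIMP4 was scarce, at 1.16 ± 0.33 CPM in SW480 but only 0.18 ± 0.032 CPM in SW620, and its log2 fold change was -2.60 ± 0.54 (adjusted p = 0.00575, edgeR). TIMP1 was the exception: it had 76.3, 48.7 and 78.4 CPM in SW480 and 93.3, 65.5 and 154 CPM in SW620. These libraries overlapped, and the difference of 0.62 ± 0.31 (log2) did not pass (adjusted p = 0.174, edgeR). Without SW620 replicate 2 the TIMP1 value was 0.92 with an adjusted p of 0.0192 (edgeR), and without SW620 replicate 3 it was 0.21 with an adjusted p of 0.554. With the replicate block TIMP1 passed as higher in SW620 (adjusted p = 0.00198, edgeR).

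Of the 9 tested MMPs, 3 fell and 1 rose. MMP14 (chromosome 14, 22836557 to 22849027), whose promoter is shown above, had 62.6, 43.5 and 61.2 CPM in SW480 and 3.97, 5.71 and 4.23 CPM in SW620. Every SW480 library lay far above every SW620 library, a 12.04-fold drop with a log2 fold change of -3.59 ± 0.23 (adjusted p = 8.91e-06, edgeR). MMP2, the gelatinase that MMP14 activates, was low in both lines, at 1.39, 2.32 and 3.62 CPM in SW480 and 0.272, 0.79 and 0.0516 CPM in SW620. Its log2 fold change was -2.73 ± 0.76 (adjusted p = 0.0235, edgeR). That call ended without SW480 replicate 3 (adjusted p = 0.0876) and without SW620 replicate 1 (adjusted p = 0.108); the other left-out libraries kept it, with a value of -3.82 without SW620 replicate 2. MMP28, the epilysin, had 44 counts summed over SW480 and 5 over SW620. That is a ratio of 9.12 with a 95% exact interval of 3.63 to 29.5, which covers counting error only. MMP17 (chromosome 12, 131828393 to 131851783), a GPI-anchored membrane-type MMP, rose from 1.16, 1.16 and 1.42 CPM to 28.4, 26.3 and 31.4 CPM. Its groups were tight and far apart, with a log2 fold change of 4.51 ± 0.21 (adjusted p = 2.67e-06, edgeR). The same PEO4 share equals 14.1% of the 82 MMP14 counts in SW620 replicate 3 and more than the 1 MMP2 count there; without that library the values were -3.54 for MMP14 and -2.22 for MMP2. MMP15, also of the membrane type, differed by -0.48 ± 0.27 (log2, adjusted p = 0.216, edgeR).

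The gelatinase MMP9 and the matrilysin MMP7 had too few counts for the test in the SW lines, with at most 7 counts of MMP9 in any SW library. The collagenase MMP1 and the stromelysin MMP3 were also below the filter, yet uneven within SW620. MMP1 had 17, 47 and 0 counts in SW620 replicates 1, 2 and 3, and at most 3 in any SW480 library. MMP3 had 14, 10 and 0 counts in SW620, and at most 1 in SW480. For both genes SW620 replicate 3, the library that stood apart above, was at 0 counts while the other SW620 libraries were not; without it, MMP1 and MMP3 entered the test and were past the threshold as higher in SW620.

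Of the 11 tested ADAMs, 3 fell and none rose (4 had an unadjusted p under 0.05, edgeR, all lower). DESeq2 and voom also called none higher. With the replicate block, however, ADAM8 and ADAM10 were past the threshold as higher in SW620, and ADAM9 and ADAM11 as lower. ADAM19 (chromosome 5, 157395534 to 157575775), a sheddase of neuregulin also called meltrin β, had 198, 157 and 182 CPM in SW480 and 28.7, 38.1 and 39.3 CPM in SW620. This 5.07-fold drop (log2 fold change -2.34 ± 0.19, adjusted p = 3.17e-05, edgeR) left no overlap between the lines. ADAM23, an adhesion protein without catalytic activity, had 176 counts over SW480 and 5 over SW620, a ratio of 36.5 (15.3 to 114). The PEO4 share equals 33.7% of its 2 counts in SW620 replicate 3; its log2 fold change was -5.13 ± 0.53 with that library and -5.23 without it. The shedding enzyme ADAM17 fell less, from 60.2 ± 4.12 to 34.97 ± 4.15 CPM (log2 fold change -0.78 ± 0.16, adjusted p = 0.0047, edgeR). Its exon bases overlap IAH1 and AC073195.1 by 13.6% together, and the strand setting of the counting is not given in the sources used here, so a part of its counts may belong to these genes. ADAM10, its closest relative in function, had 138, 98.3 and 140 CPM in SW480 and 160, 116 and 180 CPM in SW620, which overlap (log2 0.28 ± 0.22, adjusted p = 0.388, edgeR). ADAM12 was under the filter, with a highest value of 0.838 CPM in SW480 and 0.109 CPM in SW620.

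The ADAMTS family had 10 of its 15 tested members past the threshold, 7 lower and 3 higher in SW620, where 17.0% of all genes tested were lower and 13.5% higher. Part of these members had few counts in the lower group, so this count describes the table and supports nothing further. ADAMTS8, which cuts aggrecan, had 41.7, 27.3 and 42.4 CPM in SW480 and 0.381, 0.243 and 0.155 CPM in SW620. That is a 140-fold drop, with a log2 fold change of -7.13 ± 0.34 (adjusted p = 2.79e-06, edgeR). Its neighbour ADAMTS15, a versican protease, had 42.0, 34.1 and 39.3 CPM in SW480 and 1.36, 1.88 and 3.66 CPM in SW620, with a log2 fold change of -4.05 ± 0.33 (adjusted p = 3.38e-05, edgeR). Both genes lie on chromosome 11, between 130404925 and 130476641, with 19.98 kb between them. They are on opposite strands, with their 5′ ends facing each other. In PEO4 control, by contrast, ADAMTS15 was at 43.4 TPM while ADAMTS8 was at 0.12 TPM. SW620 replicate 3 was the highest SW620 library for ADAMTS15, and 1.28% of the PEO4 level equals 34.0% of its 71 counts there; without that library the value was -4.58.

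The other ADAMTS genes that fell ranged widely in level. ADAMTS17, a fibrillin-associated member, went from 41.6 ± 8.18 to 8.15 ± 1.39 CPM (log2 fold change -2.35 ± 0.21). ADAMTS19 went from 23.8 ± 6.90 to 1.82 ± 0.47 CPM (-3.70 ± 0.31), and the annotated antisense gene ADAMTS19-AS1 had 72, 94 and 70 counts in SW480 against 1, 10 and 10 in SW620; without a known strand setting the counts of ADAMTS19 are uncertain. ADAMTS7, which cuts COMP and thrombospondin, had 9.43, 8.64 and 8.33 CPM in SW480 and 0.163, 0.243 and 0.671 CPM in SW620 (-4.57 ± 0.47, adjusted p = 0.000115, edgeR). In SW620 replicate 3, 37.6% of its 13 counts equal the PEO4 share, and without that library its value was -5.41. Its annotated copies ADAMTS7P1, ADAMTS7P3 and ADAMTS7P4 may share its reads. ADAMTS7P3 had 3, 4 and 4 counts in SW480 and 11, 13 and 12 counts in SW620, the opposite direction, where ADAMTS7 itself had 3, 4 and 13 counts in SW620, so the size of its fall is uncertain. ADAMTS16 had a log2 fold change of -3.77 ± 0.48, with 87.2% of its 7 counts in SW620 replicate 3 equal to that share and a value of -4.24 without that library. ADAMTS10 had 83 counts over SW480 and 8 over SW620, a ratio of 10.8 (5.21 to 25.7). The PEO4 share equals 94.0% of its 3 counts in SW620 replicate 3; its log2 fold change was -3.39 ± 0.51 with that library and -3.44 without it.

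The 3 ADAMTS genes that rose were at or near 0 counts in SW480. ADAMTS18 had 3 counts in all SW480 libraries together and 591 in SW620, a ratio of 190 with a 95% exact interval of 64.7 to 924 (counting error only). It had 9.25, 15.9 and 8.20 CPM in the SW620 libraries. ADAMTS20 had 0 counts in SW480 and 162 in SW620, which is at least 17.2-fold higher against a floor of 3 counts per library. ADAMTS12 had 0.222, 0 and 0.113 CPM in SW480 and 3.16, 4.07 and 2.12 CPM in SW620 (log2 fold change 4.66 ± 0.71, adjusted p = 0.00113, edgeR). In each of these genes all SW620 libraries were above all SW480 libraries. The procollagen peptidase ADAMTS14, at 22.4 TPM in SW480 and 29.4 TPM in SW620, differed by 0.36 ± 0.26 (log2, adjusted p = 0.341, edgeR) and was among the ADAMTS genes with overlapping libraries.

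In PEO4, 6 members rose with TGF-β and 0 passed the threshold as lower with edgeR, while DESeq2 called 8 higher and 2 lower (ADAMTS2 and TIMP3). They were 3 MMPs (MMP9, MMP14 and MMP15), the inhibitor TIMP2, ADAM19 and ADAMTS7. Here too 39 members were tested and 28 were not, and 15 had an unadjusted p under 0.05 (edgeR). The share of all genes under that unadjusted level is not given here, so counts at an unadjusted p describe the table only. The 6 are 15.4% of the tested members, against 2.26% of the 19064 genes tested, of which 1.27% were higher and 0.991% lower. Of the 6, 4 changed by at least 2-fold. Among the 35 members with at least 10 counts in every PEO4 library, 4 were past the threshold (11.4%, against 2.56% of all genes under that filter, or 1.41% higher and 1.16% lower). The median log2 fold change over the 39 was 0.03, against -0.02 over all genes, which are close together. The libraries did not overlap for 12 of the 39 members, and for 21.5% of all genes tested.

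**Figure D3:**
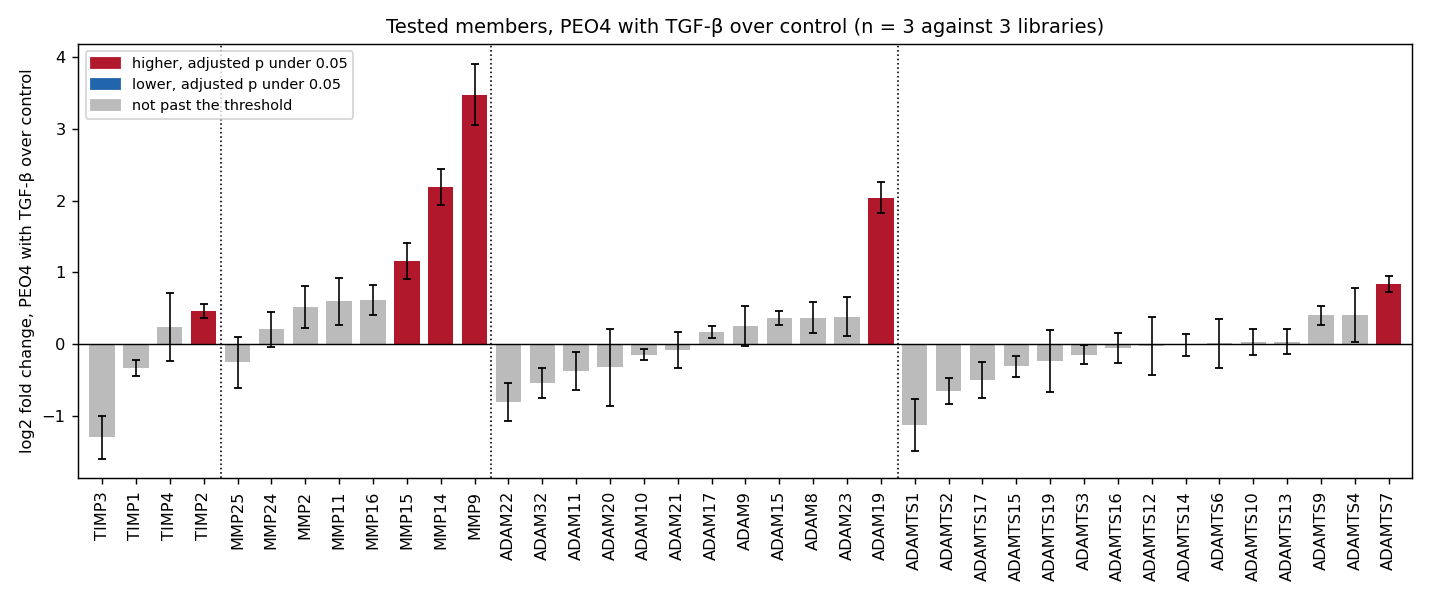
log2 fold change of PEO4 with TGF-β over PEO4 control for the 39 tested members (edgeR, bars with standard errors, 3 against 3 libraries), grouped by family and ordered by size. The 6 coloured bars are past an adjusted p of 0.05 and all point up; the longest grey bars, TIMP3 and ADAMTS1, point down.

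MMP14 had 22.02, 10.9 and 11.2 CPM in PEO4 control and 65.1, 59.8 and 76.7 CPM with TGF-β. All treated libraries lay above all controls, a 4.57-fold rise with a log2 fold change of 2.19 ± 0.25 (adjusted p = 0.00375, edgeR). MMP9, a gelatinase that cuts type IV collagen, rose from 0.153, 0.109 and 0.236 CPM to 2.14, 1.44 and 2.24 CPM. The groups were apart, with a log2 fold change of 3.48 ± 0.43 (adjusted p = 0.00572, edgeR), but even the treated level was low. MMP9 lies at chromosome 20, 46008908 to 46016561, and 18.4% of its exon bases overlap SLC12A5-AS1, which had at most 4 counts in any library. MMP15, another membrane-type MMP, went from 8.82, 4.30 and 4.99 CPM to 15.4, 12.4 and 12.8 CPM (log2 fold change 1.16 ± 0.25, adjusted p = 0.0488, edgeR). The MMP15 call ended in 5 of the 6 fits without 1 library each; the highest adjusted p was 0.207 (without control replicate 2). MMP2, the substrate of MMP14, had 8.11, 5.22 and 5.32 CPM in control and 12.1, 9.19 and 5.42 CPM with TGF-β, which overlap (log2 0.52 ± 0.29, adjusted p = 0.422, edgeR). MMP7 was not tested, since no PEO4 library was above 0.51 CPM.

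Among the inhibitors, TIMP2 went from 346, 278 and 328 CPM to 450, 441 and 415 CPM with TGF-β. The groups did not overlap, and the rise was 1.37-fold (log2 fold change 0.46 ± 0.098, adjusted p = 0.0496, edgeR). That value is at the threshold, and the call ended in the same 5 of 6 fits, with an adjusted p of up to 0.198 without control replicate 2. TIMP3 pointed the other way, with 169, 277 and 333 CPM in control and 62.6, 121 and 132 CPM with TGF-β. The libraries did not overlap, but they spread widely within each group, and the log2 difference of -1.30 ± 0.30 had an adjusted p of 0.0609 (edgeR). It passed under DESeq2 (adjusted p = 0.0281), and in the authors' deposited table TIMP3 has an adjusted p of 0.0241. It also passed without control replicate 1 (-1.52, adjusted p = 0.0126, edgeR), with no count filter and with the replicate block. TIMP1 had 46.3, 49.7 and 58.5 CPM in control and 42.0, 37.2 and 43.7 CPM with TGF-β, a log2 difference of -0.33 ± 0.11 (adjusted p = 0.175, edgeR). The TIMP1 libraries did not overlap, and with the replicate block TIMP1 passed as lower (adjusted p = 0.0252, edgeR). TIMP4 was near the floor in both groups, at 0.484 ± 0.137 and 0.578 ± 0.244 CPM (log2 0.24 ± 0.47, adjusted p = 0.849, edgeR).

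ADAM19 was the ADAM past the threshold among the 12 tested. It had 9.18, 4.79 and 7.35 CPM in control and 31.8, 24.3 and 32.0 CPM with TGF-β. Its 4.12-fold rise (log2 fold change 2.04 ± 0.21, adjusted p = 0.00265, edgeR) brought it to 10.0 TPM. The sheddases ADAM10 and ADAM17 did not pass. ADAM10 had 240 ± 11.3 CPM in control and 217 ± 7.12 CPM with TGF-β (log2 -0.15 ± 0.076, adjusted p = 0.378, edgeR), and ADAM17 had 135 ± 8.23 and 152 ± 8.72 CPM (0.17 ± 0.082, adjusted p = 0.332). ADAM15, at 126 ± 10.3 and 163 ± 14.7 CPM, had an adjusted p of 0.0968 with edgeR and 0.0257 in the authors' deposited table.

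Of the 15 ADAMTS genes tested in PEO4, ADAMTS7 rose, from 11.9, 11.5 and 13.8 CPM to 23.4, 22.7 and 20.9 CPM. The groups were tight and apart, a 1.79-fold rise with a log2 fold change of 0.84 ± 0.11 (adjusted p = 0.00801, edgeR), and the call ended without control replicate 2 (adjusted p = 0.0553). ADAMTS1, the ADAMTS gene at the highest level in this line, had 158, 242 and 379 CPM in control and 69.3, 107 and 180 CPM with TGF-β. These libraries overlapped, and the log2 difference of -1.13 ± 0.37 had an adjusted p of 0.169 (edgeR). Each treated library was below the control library of the same replicate number. ADAMTS1 was past the threshold as lower with the replicate block and with no count filter. The procollagen peptidase ADAMTS2 had 28.7 ± 5.90 CPM in control and 18.2 ± 3.36 CPM with TGF-β (log2 -0.66 ± 0.18, adjusted p = 0.103, edgeR, and 0.0144 in the authors' deposited table). ADAMTS15 and ADAMTS16, which fell in SW620, had log2 differences of -0.31 ± 0.15 and -0.06 ± 0.21 in PEO4 (adjusted p = 0.334 and 0.923, edgeR). With the replicate block, ADAMTS15 was past the threshold as lower.

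**Figure D4:**
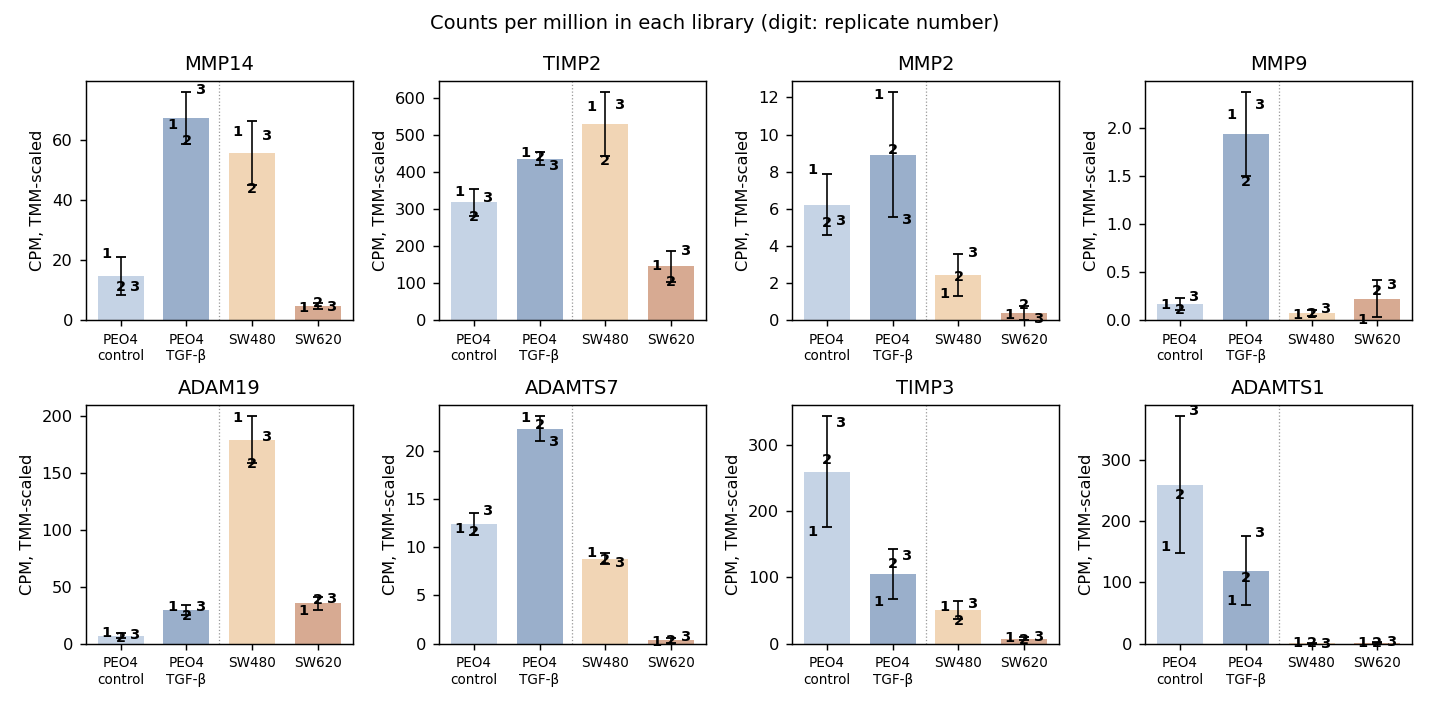
CPM of 8 members in each of the 12 libraries, scaled by TMM factors within each comparison (dotted line between them); digits are replicate numbers, bars group means and error bars SD (n = 3). MMP14, ADAM19, ADAMTS7 and TIMP2 are higher with TGF-β than in control and lower in SW620 than in SW480; TIMP3 and ADAMTS1 are more spread within the PEO4 groups.

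The 2 comparisons share no libraries, and 33 members were tested in both. Of these, 5 were higher with TGF-β in PEO4, and 4 of the 5 (MMP14, ADAM19, ADAMTS7 and TIMP2) were lower in SW620, which is 80.0% of that list. MMP15 was the fifth, and MMP9 was not tested in the SW lines. Over all 17185 genes tested in both, 44.8% of the 212 genes higher with TGF-β were lower in SW620 and 16.0% were higher. Read the other way, 14 members tested in both were lower in SW620, and 28.6% of them were higher with TGF-β, against 3.28% of the 2898 such genes. The list is short, and TIMP2 is at the threshold in PEO4. Members were also called more often in each comparison taken alone. Higher with TGF-β were 5 of 33 members and 212 of 17185 genes, and lower in SW620 were 14 of 33 and 2898 of 17185. Members that passed the SW filter through SW480 alone could be called only as lower in SW620. These shares describe the table and support nothing further. No member tested in both was past the threshold in the same direction in both edgeR fits without a replicate block. TIMP3, lower in SW620, also passed as lower in PEO4 under DESeq2 and the other settings given above. With the replicate block in both fits, TIMP3 and ADAMTS15 were past the threshold as lower in both comparisons.

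**Figure D5:**
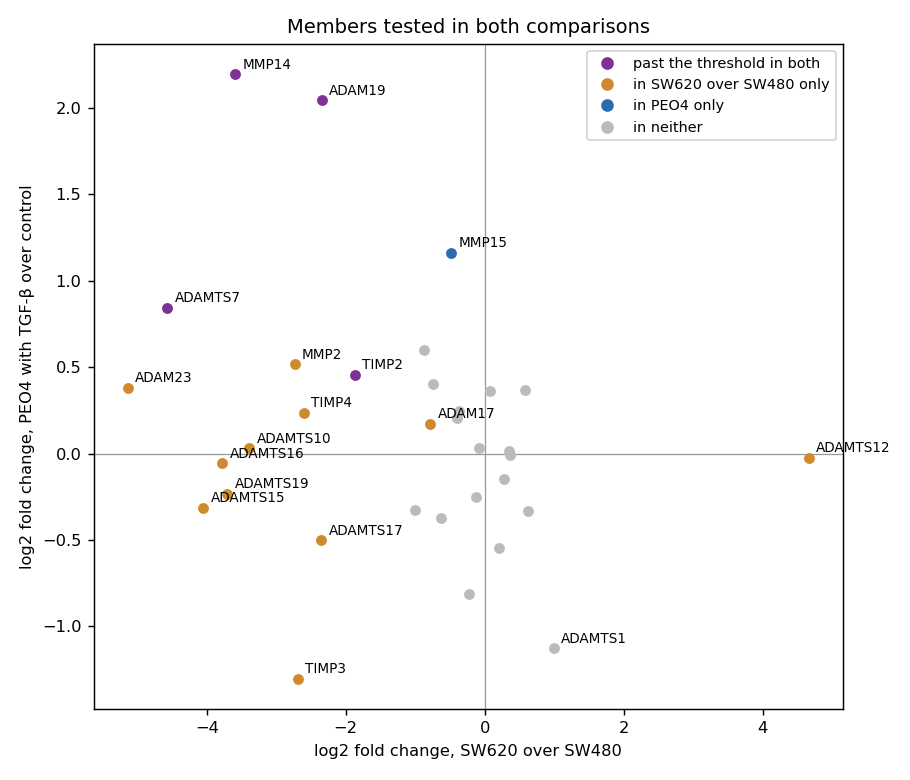
log2 fold change of SW620 over SW480 (x axis) against that of PEO4 with TGF-β over control (y axis, both from edgeR) for the 33 members tested in both, coloured by the comparison in which they were past the threshold. MMP14, ADAM19, ADAMTS7 and TIMP2 lie in the upper left; the points share the libraries of each axis.

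Genes that act on or with these proteases were counted from lists. Among 21 regulators and partners, 18 were tested in the SW lines, where 3 were higher and 6 lower in SW620 (13.5% and 17.0% of all genes tested were higher and lower in this comparison). Those with the largest changes were TSPAN15 (log2 fold change 2.20), TSPAN10 (-1.75) and TSPAN14 (1.34), tetraspanins that steer ADAM10, and PCSK5 (-1.48), a proprotein convertase. Leaving out SW620 replicate 1 ended the TSPAN10 call (adjusted p = 0.0578, edgeR). In PEO4, 20 of them were tested and none passed edgeR's adjusted threshold. An unadjusted p under 0.05 (edgeR) was found for 6, while DESeq2 called 3 and voom called 1. Over all genes DESeq2 called 922 and voom 433 in PEO4. The share of all genes at an unadjusted p is not given, so such counts in these lists describe the table only. Of 12 relatives outside the naming rule, 7 were tested in each comparison. In SW620 the tolloid-like TLL2 (-3.36) and papilin PAPLN (-1.68) were lower and ADAMTSL2 (2.48) was higher; the PAPLN call ended without SW620 replicate 1 (adjusted p = 0.0607, edgeR). In PEO4 none passed edgeR's threshold, with 1 at an unadjusted p under 0.05 and 1 called by DESeq2.

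The other lists held proteins that these enzymes cut. Of 8 EGF-family ligands released by ADAMs, 5 were tested in the SW lines and none passed edgeR's threshold (1 had an unadjusted p under 0.05, and voom called 1). In PEO4, 7 were tested and EREG (epiregulin) was lower with TGF-β, from 16.6 ± 4.92 to 7.75 ± 0.77 CPM (log2 fold change -1.09 ± 0.22, adjusted p = 0.0398, edgeR). That call ended in 4 of the 6 fits without 1 library each, among them the fit without control replicate 2 (adjusted p = 0.202, edgeR). Of 9 matrix substrates, 7 were tested in the SW lines, and COL1A1 (-1.44) and THBS1 (-0.66) were lower in SW620. The THBS1 call ended without SW480 replicate 1 (adjusted p = 0.161), without SW480 replicate 3 (0.0997) and without SW620 replicate 1 (0.131, edgeR). In PEO4, 5 were tested, and COL3A1 (2.75) and THBS1 (2.43), which encode type III collagen and thrombospondin, were higher with TGF-β; without control replicate 2 the THBS1 adjusted p was 0.0577 (edgeR).

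In the authors' deposited tables, 40 members are listed for the SW lines, with 6 higher and 16 lower at an adjusted p under 0.05, of which 19 were also called by edgeR. ADAMTS4, MMP1 and MMP11 passed in the authors' deposited table but not in the edgeR fit; DESeq2 run here called ADAMTS4 and MMP1. MMP28 passed with edgeR and is not among the calls of the authors' deposited table. For PEO4, 39 members are listed in the authors' deposited table, with 7 higher and 2 lower. All 6 members called by edgeR are among them, and ADAM15, ADAMTS2 and TIMP3 passed there but not in the edgeR fit; DESeq2 run here called these 3 as well.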

How the data were processed

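Total RNA depleted of ribosomal RNA was sequenced, per the labels' protocols. The authors deposited whole-number counts per Ensembl gene for 12 libraries, and their tables of differential expression, per the file headers, hold a signal (count over 1 size factor per library), a log2 fold change and a p-value. Per the submitters' processing notes, Trimmomatic 0.36, STAR 2.5.2b, featureCounts of Subread 1.5.2, DESeq2 and GRCh38 were used; the annotation and strand setting are not given in the sources used here. Here, each comparison was fitted over all genes and its own 6 libraries (edgeR 4.0.16, R 4.3.3, filterByExpr, TMM scaling, two-sided quasi-likelihood test, Benjamini-Hochberg adjustment, threshold 0.05). The standard error was the log2 fold change over the square root of F. CPM values use TMM-scaled totals, except marker sums, which use library totals. TPM values use exon lengths from GENCODE 29, in which 56898 of 57500 gene IDs and all 67 members were found and which gave positions and overlaps. With 3 libraries per group, the smallest two-sided p of an exact permutation test is 0.1, so each gene was tested in the model over all genes. Intervals and floors cover counting error only, as no molecular identifiers are named. Members and lists were chosen with earlier results of these data known. Named were members past the threshold (full statistics for the 15 largest changes), TIMP1 to TIMP4, MMP2, MMP7, MMP9, MMP14, ADAM10, ADAM17, the 3 members with the highest TPM per group, and up to 4 genes per related list; other members were named after their values were seen. Promoter windows are from RefSeq; protein sequences were not used here. The GC box, the TATA motif, the GC split and the wider carry-over rule (genes of at least 20 CPM in PEO4) were added after seeing the data, since the first rule (50 CPM) left 2 genes with 42 counts for SW620 replicate 3 (1.25% of their PEO4 level). The fit was tested on simulated data. It recovered 19.6% of true 2-fold changes in the SW setting and 65.7% in the PEO4 setting. For true 4-fold changes the shares were 70.4% and 88%. Few genes were changed in the simulation. They were 97 by 2-fold and 98 by 4-fold among 20220 in the SW setting, and 99 and 100 among 18611 in the PEO4 setting. In the SW data themselves 30.5% of genes were past the threshold, so the simulated shares do not measure the power of the SW fit. A member not past the threshold may still differ. Alternatives were DESeq2 1.42.0, voom in limma 3.58.1, RLE and upper-quartile scaling, no count filter, at least 10 counts in every library, all 12 libraries in 1 model, a replicate block, the omission of each library in turn, and glmTreat against a change of 2-fold.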

Additional observations from a re-analysis of the deposited data

How the results depend on the processing

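For SW620 against SW480, 20 members were past the threshold, with 19 to 24 when 1 library was left out, 18 under glmTreat against a 2-fold change, 25 with no count filter and 9 with at least 10 counts in every library, where 26 members were tested. The 20 members stayed past the threshold under DESeq2, voom, other scalings, no filter and all 12 libraries in 1 model. The median log2 fold change of -0.64 was -0.12 with no count filter, -0.36 with at least 10 counts in every library, and from -0.66 to -0.42 when 1 library was left out. For PEO4, 6 members were past the threshold, with 10 under DESeq2 (2 of them lower), 12 with no count filter (3 lower), 3 with all 12 libraries in 1 model and 3 to 8 when 1 library was left out (3 without control replicate 2, 8 without control replicate 1). Under glmTreat against a 2-fold change 0 members passed, 3 had an unadjusted p under 0.05, and 9 of all genes passed. The PEO4 median of 0.03 ranged from -0.061 to 0.19 when 1 library was left out. TIMP4 in PEO4 changed sign to -0.055 (log2, adjusted p = 0.982, edgeR) without TGF-β replicate 1, and ranged up to 0.54 (without TGF-β replicate 3). Over all genes, calls in PEO4 went from 431 to 72 without control replicate 2, 1080 without control replicate 1, 1457 with no count filter, 922 under DESeq2, 165 in the model of 12 libraries, and in the SW lines from 6385 to 2504 under glmTreat. The cause of these changes was not tested, apart from the smaller number of genes tested under the stricter filter.

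The replicate numbers were not taken as pairs: same-numbered libraries deviated together with correlations of 0.0159, 0.670 and 0.567 in the SW lines and 0.291, -0.140 and 0.481 in PEO4, and not every library correlated best with its own number. With the replicate block, 30 members in the SW lines and 15 in PEO4 (6 of them lower) were past the threshold, and 10667 and 2102 of all genes. Precision is limited by 3 libraries per group and, for 28 members in each comparison, by counts too low to test.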
